A study of Mus musculus with 4 samples.

Results

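The genes described here are 10 genes of cytotoxic granules and killer lymphocytes, found by symbol in a count table of 22865 genes. They are Gzma, Gzmb, Prf1, Nkg7, Ctsw, Serpinb9, Fasl, Ccl5, Klrd1 and Klrk1. All 10 stood in the table and all 10 had counts in each of 4 RNA-seq libraries, which were 2 from Aire-/- mice and 2 from Aire+/+ mice. Each library held 500 lung γδ T cells, taken from C57Bl/6 females aged 10 weeks and sorted as viable, CD45+, TCRγδ+, TCRβ-, CD27- and negative for the Vγ chains 1, 2, 4 and 5. The submitters name this population Tgd17. Aire is the regulator that makes thymic epithelial cells display tissue-restricted proteins, and the genotype label names no restriction to a tissue. Aire itself had 0 counts in all 4 libraries and so checked no label. No other allele or treatment is named, and the labels do not say whether the libraries of a genotype came from separate animals. The p-values below therefore measure only the spread between libraries, which may be technical.

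Killer lymphocytes store granzymes, which are proteases, and perforin, which makes pores, in secretory granules. They release these onto a target cell, or show it a death ligand such as FasL. Receptors of the killer lectin family decide which targets are engaged. Among γδ T cells of the mouse, this program is known mainly from CD27+ cells that make interferon-γ, while CD27- cells are known for interleukin-17. Natural killer cells and CD8 T cells carry the same genes.

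Transcripts of all 10 genes were present in both genotypes, and no member was called different by the test over all genes. Nkg7, Ccl5, Gzma and Gzmb stood lower in both Aire-/- libraries than in either Aire+/+ library, at fitted levels 1.86-fold to 2.33-fold lower. Klrk1 did so too, at a level 1.31-fold lower, and so did 17.3% of all genes tested. Prf1, which acts together with the granzymes, did not show that pattern, and Serpinb9, the inhibitor of granzyme B, stood higher in 1 Aire-/- library. Klrk1, which encodes the activating receptor NKG2D, had the highest counts of the 10 in every library. The Aire-/- libraries also differed from each other, by 6.42-fold for Prf1 and 9.03-fold for Fasl.

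Promoters are shown for the 3 granule genes that stood lower in Aire-/- libraries and for Prf1, which did not, because all 4 hold letters of the RUNX core. The windows run from 250 bases before to 50 bases after the start, on the strand of the gene, from RefSeq on GRCm38.p6. They lie at chr7:43436888-43437187 (plus strand) for Nkg7, chr13:113100932-113101231 (minus strand) for Gzma, chr14:56262285-56262584 (minus strand) for Gzmb and chr10:61297586-61297885 (plus strand) for Prf1. The start used for Prf1 lies downstream of the first base of the gene given below, 61297751, while those of Nkg7, Gzma and Gzmb match theirs. Capitals mark the T-box core AGGTGT and the RUNX core TGTGGT on either strand, which do not overlap here.
Nkg7: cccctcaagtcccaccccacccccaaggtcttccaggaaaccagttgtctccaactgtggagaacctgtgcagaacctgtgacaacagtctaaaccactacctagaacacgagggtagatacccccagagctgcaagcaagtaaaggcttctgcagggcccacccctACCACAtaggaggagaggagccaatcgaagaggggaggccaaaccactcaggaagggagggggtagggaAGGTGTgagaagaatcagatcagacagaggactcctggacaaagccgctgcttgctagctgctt
Gzma: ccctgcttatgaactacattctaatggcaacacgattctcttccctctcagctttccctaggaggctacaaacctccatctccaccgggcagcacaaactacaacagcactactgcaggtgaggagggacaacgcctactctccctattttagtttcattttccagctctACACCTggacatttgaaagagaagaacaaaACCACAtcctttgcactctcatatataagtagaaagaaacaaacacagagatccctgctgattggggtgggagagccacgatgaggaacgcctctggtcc
Gzmb: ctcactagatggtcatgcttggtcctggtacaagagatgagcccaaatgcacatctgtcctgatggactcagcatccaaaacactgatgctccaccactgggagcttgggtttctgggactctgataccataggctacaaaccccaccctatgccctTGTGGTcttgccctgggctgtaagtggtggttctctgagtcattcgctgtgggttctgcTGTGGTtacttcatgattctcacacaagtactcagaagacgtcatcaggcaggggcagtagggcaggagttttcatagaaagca
Prf1: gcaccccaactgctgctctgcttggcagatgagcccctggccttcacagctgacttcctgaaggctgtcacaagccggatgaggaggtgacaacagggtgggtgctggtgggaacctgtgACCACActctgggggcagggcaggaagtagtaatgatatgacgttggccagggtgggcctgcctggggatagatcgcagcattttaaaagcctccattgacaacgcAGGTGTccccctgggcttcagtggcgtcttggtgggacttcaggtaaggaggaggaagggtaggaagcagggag

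The RUNX core was found in 6 of the 7 members with a promoter in the RefSeq table, namely Gzma, Gzmb, Prf1, Nkg7, Klrk1 and Serpinb9, which is 85.7% of them, against 16.8% of all 32851 promoters of the same length. For Klrk1 and Serpinb9, as for Prf1, the start used lies downstream of the first base of the gene. The Serpinb9 window, chr13:33004291-33004590, lies well inside the gene, which begins at 32997061. Its RUNX match begins 11 bases after the start used, so it is not upstream of that gene. The T-box core was found in 3 of the 7, Gzma, Prf1 and Nkg7 (42.9%), against 13.7% of all promoters. Runx3 and the T-box factors T-bet and Eomes are known regulators of killer genes in mice. A further 5 motifs were searched on both strands. The AP-1 motif TGANTCA was present in 2 members and in 7.81% of all promoters, and the interferon factor motif GAAANNGAA in 3 members and 8.56%. The ETS motif CCGGAA (14.9% of all promoters), the cAMP element TGACGTCA (1.79%) and the NF-κB motif GGANTTTCC (1.25%) were present in 0 members. Prf1 held both capitalised motifs, as Nkg7 and Gzma did, although its values did not follow theirs. A match is a run of letters and not a bound site.

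The libraries had 1106891 to 1265239 total counts and 16283 to 17423 genes with a count. Values are counts scaled to a common library size with TMM factors (CPM), so that 1 count was worth 0.808 to 0.943 CPM, and a count of 0 allowed up to 3 counts, or 2.42 to 2.83 CPM. The 11 marker genes of interleukin-17 γδ T cells found in the table summed to 5950 and 6660 CPM in Aire-/- libraries and 4080 and 5410 CPM in Aire+/+ libraries. B cell and plasma cell markers, 9 genes without Blk, which γδ T cells that make interleukin-17 also express, summed to 2500 and 1950 CPM against 5440 and 3250 CPM. These sums include 1 gene, not reported here by name, that was called lower and had almost all its counts in Aire+/+ libraries. With Blk counted, 6 of the 10 lay lower in both Aire-/- libraries, where 17.3% of all genes did, and 4 overlapped. Natural killer cell markers are set beside the killer genes below. In bulk RNA, fewer cells of a type and less RNA per cell cannot be told apart.

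**Figure D1:**
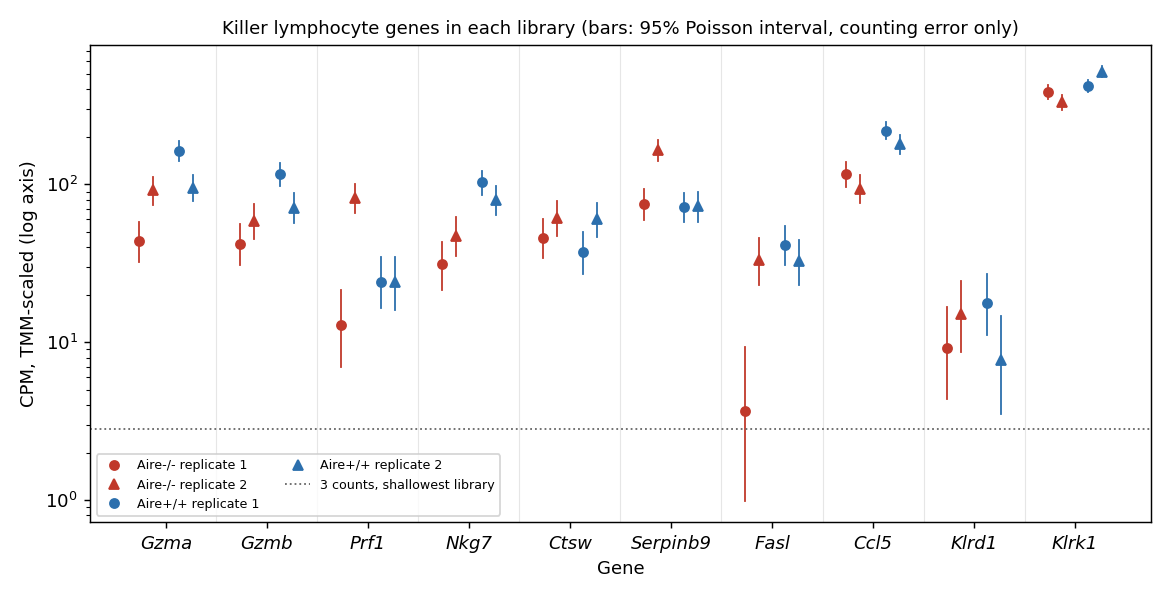
CPM of the 10 genes in each library on a log axis, Aire-/- libraries in red left of Aire+/+ libraries in blue, circles for replicate 1 and triangles for replicate 2, bars the 95% exact Poisson interval. Nkg7 and Ccl5 show red points clear below blue ones, while for Prf1, Fasl and Serpinb9 the 2 red points lie far apart.

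Granzyme A, a protease that cuts after arginine or lysine, is encoded by Gzma (chromosome 13, 113093824 to 113100981, GRCm38, minus strand). Gzma had 48 and 97 counts in Aire-/- libraries, against 202 and 111 in Aire+/+ ones, or 67.7 ± 33.7 and 129 ± 48.3 CPM (SD, n = 2 each). The genotypes did not overlap, but Aire-/- replicate 2, at 91.5 CPM, almost reached Aire+/+ replicate 2, at 95 CPM. The log2 fold change was -0.94 (SE 0.35, 95% interval -1.70 to -0.17), with an adjusted p of 0.89 by edgeR's quasi-likelihood test. Gzma was called lower without Aire-/- replicate 2, at -1.56 (adjusted p = 0.020), and without Aire+/+ replicate 2, at -1.27 (adjusted p = 0.024). Those fits called 0.11% and 0.395% of all genes lower, and in each a genotype left with 1 library takes its spread from the other genotype. Without Aire-/- replicate 1 the value was -0.49 (adjusted p = 0.85), and without Aire+/+ replicate 1 it was -0.50 (adjusted p = 1.0).

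Granzyme B, which cuts after aspartate and activates caspases in the target, is encoded by Gzmb (chromosome 14, 56258836 to 56262334, minus strand). Gzmb had 46 and 62 counts in Aire-/- libraries and 143 and 83 in Aire+/+ libraries, or 50.2 ± 11.6 and 93.3 ± 31.5 CPM (SD, n = 2 each). Aire+/+ replicate 1 was the high library for both granzymes, and replicate 2 stood between it and the Aire-/- pair. Gzmb had a log2 fold change of -0.89 (SE 0.32, 95% interval -1.58 to -0.21, adjusted p = 0.89). With 1 library left out it ranged from -1.20 to -0.51, the smallest size being without Aire+/+ replicate 1 (adjusted p = 1.0). Other granzymes were nearly absent. Gzmc had 0 counts in both Aire-/- libraries and 4 in each Aire+/+ library, Gzmk 3 and 0 against 5 and 1, and Gzmm 1 and 0 against 2 and 1. Gzmd, Gzme and Gzmg had 0 counts in all 4 libraries. Granzyme genes are similar in sequence, and how shared reads were counted is not given in the sources used here.

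Perforin, the pore former that lets granzymes into the target, is encoded by Prf1 (chromosome 10, 61297751 to 61304684, plus strand). Prf1 had 14 and 87 counts in Aire-/- libraries, against 30 and 28 in Aire+/+ ones, or 12.8 and 82.0 CPM against 24.2 and 24.0 CPM. The Aire-/- pair therefore lay on both sides of the Aire+/+ pair, whose SD was 0.202 CPM (n = 2). Replicate 2 of Aire-/- was 6.42-fold above replicate 1, with an exact 95% interval of 3.63 to 12.2 for counting error. With all libraries its log2 fold change was 0.97 (SE 0.61, 95% interval -0.35 to 2.29, adjusted p = 0.94). It was 1.77 without Aire-/- replicate 1, when Prf1 was called higher (adjusted p = 0.032, in a fit that called 0.121% of genes higher), and -0.91 without Aire-/- replicate 2 (adjusted p = 0.90). A single library set both the size and the sign of the Prf1 value.

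Nkg7, a membrane protein of cytotoxic granules needed for their release in mice, is encoded on chromosome 7 (43437138 to 43438246, plus strand). It had 34 and 50 counts in Aire-/- libraries and 127 and 93 in Aire+/+ libraries, or 39.1 ± 11.4 and 91.1 ± 16.3 CPM (SD, n = 2 each). Both Aire-/- values lay under both Aire+/+ values, with 79.6 CPM the lower Aire+/+ level and 47.1 CPM the higher Aire-/- level. The log2 fold change was -1.22 (SE 0.31, 95% interval -1.90 to -0.54), a 2.33-fold lower level, and its p ranked 28 of 9783 genes. The adjusted p was 0.67. Leaving out libraries 1 at a time moved the log2 fold change between -1.55 and -0.94.

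Ctsw encodes cathepsin W, a cysteine protease of natural killer and cytotoxic T cells (chromosome 19, 5465043 to 5468628, minus strand). It had 50 and 65 counts in Aire-/- libraries and 46 and 70 in Aire+/+ libraries, or 53.5 ± 11 and 48.5 ± 16.1 CPM (SD, n = 2 each). The genotypes overlapped, and the log2 fold change of 0.14 had a 95% interval of -0.60 to 0.88 (adjusted p = 0.99). That interval still holds a change of 1.85-fold upward. Ctsw overlaps 9 bases of Fibp on the opposite strand, and it is the only member that overlaps another annotated gene.

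Serpinb9 encodes a serpin that blocks granzyme B inside the cell that carries it (chromosome 13, 32997061 to 33017955, plus strand). It had 82 and 175 counts in Aire-/- libraries and 89 and 85 in Aire+/+ libraries, or 120 ± 63.7 and 72.3 ± 0.57 CPM (SD, n = 2 each). Aire-/- replicate 2, at 165 CPM, stood apart, while replicate 1, at 74.9 CPM, was near the Aire+/+ values of 71.9 and 72.7 CPM. Its log2 fold change was 0.73 (SE 0.33, 95% interval 0.01 to 1.45, adjusted p = 0.89), and without Aire-/- replicate 2 it was 0.05. The table lists 6 close relatives of this gene as well, from Serpinb9b to Serpinb9g, and reads of these copies may not have been told apart. Of these, Serpinb9b had 7 and 14 counts in Aire-/- libraries and 0 and 1 in Aire+/+ libraries, too few to test.

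Fasl encodes the ligand that triggers the death receptor Fas on a target (chromosome 1, 161780691 to 161788495, minus strand). It had 4 and 35 counts in Aire-/- libraries and 51 and 38 in Aire+/+ libraries. The 4 counts of Aire-/- replicate 1 have a 95% exact Poisson interval of 1.09 to 10.2 counts and lie just above the limit of 3 that a count of 0 allows. Aire-/- replicate 2, at 33.0 CPM, lay between the Aire+/+ libraries, at 41.2 and 32.5 CPM. Over all libraries the log2 fold change was -1.01 (SE 0.63, 95% interval -2.37 to 0.34, adjusted p = 0.93). It was -0.15 without Aire-/- replicate 1, and -3.30 without Aire-/- replicate 2. The latter value rests on the 4 counts of replicate 1 for Aire-/-. Fas itself, the receptor, had 41 and 20 counts in Aire-/- libraries and 11 and 14 in Aire+/+ libraries (log2 fold change 1.43, adjusted p = 0.89).

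Ccl5 encodes RANTES, a chemokine that killer lymphocytes store and secrete to draw in leukocytes (chromosome 11, 83525778 to 83530518, minus strand). It had 127 and 99 counts in Aire-/- libraries and 271 and 210 in Aire+/+ libraries, or 105 ± 16.0 and 199 ± 27.8 CPM (SD, n = 2 each). The gap between the genotypes, 116 CPM to 180 CPM at the nearest libraries, was wider than the spread within either. The log2 fold change was -0.93 (SE 0.23, 95% interval -1.43 to -0.43, adjusted p = 0.67), and its p ranked 22 of 9783. It moved only between -1.09 and -0.78 when libraries were left out 1 at a time. Among chemokine receptors that bind RANTES, Ccr1 had 5 and 17 counts in Aire-/- libraries and 19 and 24 in Aire+/+ libraries (log2 fold change -0.80), and Ccr3 had 4 and 2 against 2 and 0.

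Klrd1 encodes CD94, the shared chain of the NKG2A and NKG2C receptors for the class I molecule Qa-1 (chromosome 6, 129588092 to 129598775, plus strand). It had 10 and 16 counts in Aire-/- libraries and 22 and 9 in Aire+/+ libraries, or 12.1 ± 4.21 and 12.7 ± 7.13 CPM (SD, n = 2 each). The genotypes overlapped fully. The interval of its log2 fold change, -1.41 to 1.25 around -0.08 (adjusted p = 0.99), shows how little such counts can tell, since a 2.37-fold higher level lies inside it. Klrc1, which encodes the inhibitory partner NKG2A, had 21 and 16 counts in Aire-/- libraries and 47 and 32 in Aire+/+ libraries (log2 fold change -0.93, SE 0.41, adjusted p = 0.89). H2-T23, the gene for Qa-1, had 195 and 196 counts against 185 and 203 (0.17, adjusted p = 0.98) and was picked with these values known.

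Klrk1 encodes NKG2D, an activating receptor for stress-induced ligands (chromosome 6, 129610323 to 129623903, minus strand). It had 421 and 351 counts in Aire-/- libraries and 519 and 602 in Aire+/+ libraries, or 358 ± 37.9 and 467 ± 67.6 CPM (SD, n = 2 each). The groups did not overlap and the difference was small, with a log2 fold change of -0.38 (SE 0.19, 95% interval -0.81 to 0.04, adjusted p = 0.91). Hcst, whose product DAP10 carries the signal of NKG2D, had 41 and 39 counts in Aire-/- libraries and 40 and 73 in Aire+/+ libraries. Of the NKG2D ligands, H60b had 76 and 66 counts against 66 and 81 (log2 fold change 0.10), and it and Hcst were named after their values were seen. Ulbp1 had 3 and 12 against 8 and 7, and Raet1a, Raet1b, Raet1d and Raet1e had 0 counts in all 4 libraries.

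**Figure D2:**
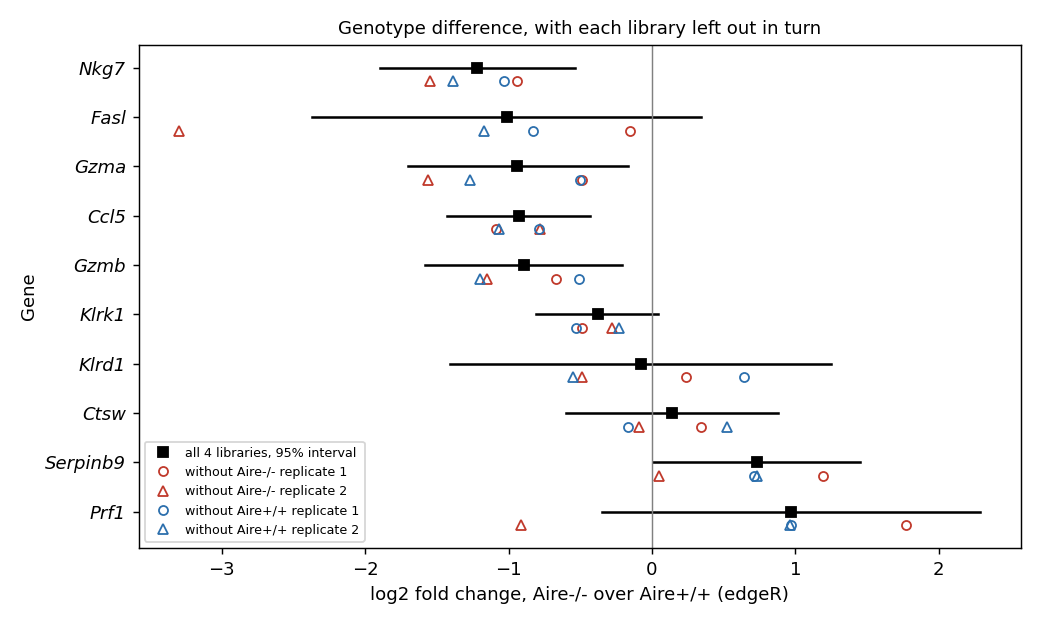
Log2 fold change of each gene, Aire-/- over Aire+/+, with all 4 libraries (black square, bar the 95% interval) and with 1 library left out (open symbols, red where an Aire-/- library is left out). Nkg7 and Ccl5 keep all symbols left of 0 and close together, whereas Fasl spans -3.30 to -0.15 and Prf1 spans -0.91 to 1.77.

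Over the 10 genes, 0 of 10 were called higher, where 0.0% of the 9783 genes tested were, and 0 of 10 lower, where 0.0204% (2 genes) were. At an unadjusted p under 0.05, 4 of 10 were lower (Gzma, Gzmb, Nkg7 and Ccl5), where 2.77% of all genes were, and 1 of 10 was higher (Serpinb9), where 2.80% were. DESeq2's Wald test and limma-voom called 0 of the 10 as well. Both Aire-/- values lay below both Aire+/+ values for 5 of 10 genes, where 17.3% of all genes did, and above them for 1, where 17.1% did. The 10 genes had a median log2 fold change of -0.64, and all genes one of 0.01. The median of the 10 was -0.32 without Aire-/- replicate 1 and -0.85 without Aire-/- replicate 2. Because the genes were put together with earlier results of these libraries known, these shares describe the 10 genes and are no independent evidence of a direction. Summed, the 10 genes had 764 and 978 CPM in Aire-/- libraries and 1210 and 1140 CPM in Aire+/+ libraries, which is 0.0731% and 0.0937% of all counts against 0.119% and 0.115%.

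**Figure D3:**
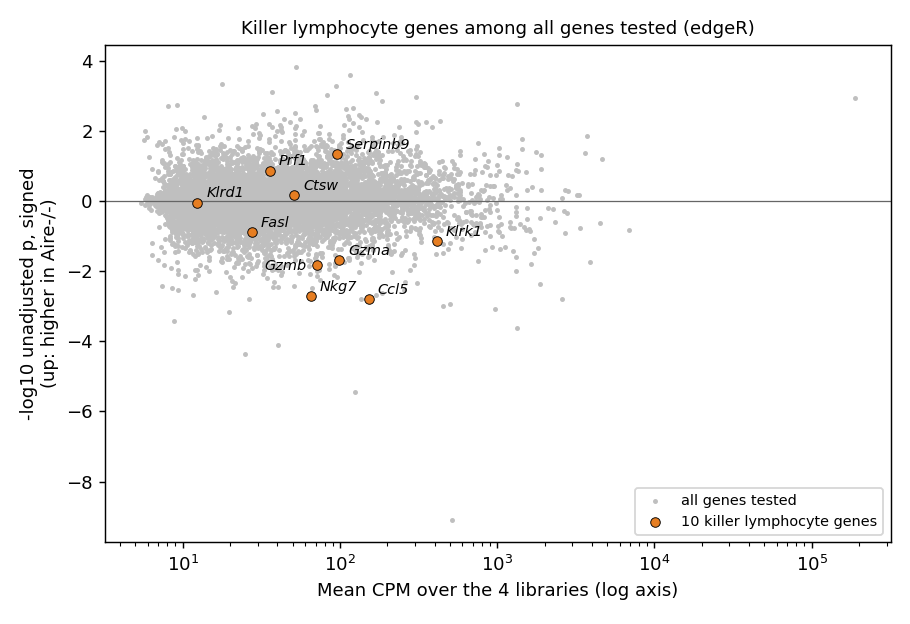
Each of the 9783 genes tested by mean CPM (log axis) and by -log10 of the unadjusted p, drawn upward where Aire-/- was higher and downward where it was lower, with the 10 killer genes in orange. Ccl5 and Nkg7 lie at the lower edge of the cloud, and Klrd1, Ctsw, Prf1 and Fasl lie inside it.

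Levels of different genes were set side by side as CPM per kilobase of the longest annotated transcript, averaged over the 4 libraries. On that scale Ccl5 came first at 228 CPM per kb, followed by Klrk1 at 127, Gzma at 98.8 and Nkg7 at 73.9 CPM per kb. Gzmb, with 29.3 to 80.5 CPM per kb over libraries, Ctsw (32.6) and Serpinb9 (27.7) came next, and Prf1 (14.5), Fasl (14.2) and Klrd1 (13.5) were lowest. Neighbours in this order mostly overlapped over libraries. Ccl5 had 140 CPM per kb in its lowest library and Klrk1 158 in its highest, and Prf1 ranged from 5.17 to 33.2 and Klrd1 from 8.38 to 19.3. Klrk1, first by counts with 33.8% to 50.4% of those of the 10 genes, has a longest transcript of 3.26 kb, and Ccl5 one of 0.668 kb. Prf1 was lower per length than either granzyme in every library.

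Differences between libraries of 1 genotype were as large as those between genotypes for several members. Within Aire-/-, replicate 2 exceeded replicate 1 beyond counting error for 4 of 10 genes, Gzma (2.09-fold), Prf1 (6.42-fold), Fasl (9.03-fold, exact 95% interval 3.23 to 35.0) and Serpinb9 (2.2-fold), while Klrk1 lay below it. Within Aire+/+, replicate 2 was lower than replicate 1 for 4 of 10 genes, Gzma, Gzmb, Ccl5 and Klrd1, and higher for 2, Ctsw and Klrk1. The share of all genes that differed beyond counting error is not given here, so these counts do not set the 10 genes apart. Other killer cell genes, picked after their values were seen, differed in the same Aire-/- pair. Ccl4, a chemokine of activated killer cells, had 5 and 38 counts there against 47 and 23 in Aire+/+ libraries. Klre1, a lectin receptor, had 5 and 24 against 49 and 20. Tyrobp, the adaptor DAP12, had 4 and 23 against 34 and 18, and Fcer1g, a signalling chain of Fc receptors, had 3 and 18 against 11 and 7. Others did not share this difference. Of the 12 killer receptors and partners tested, 6 were higher in Aire-/- replicate 2 than in replicate 1 and 6 lower, and the exact interval of the ratio lay above 1 for 2 of them. Klrc1 had a ratio of 0.787 and Klri2, another lectin receptor picked with its values known, one of 0.563, both with intervals that hold 1.

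**Figure D4:**
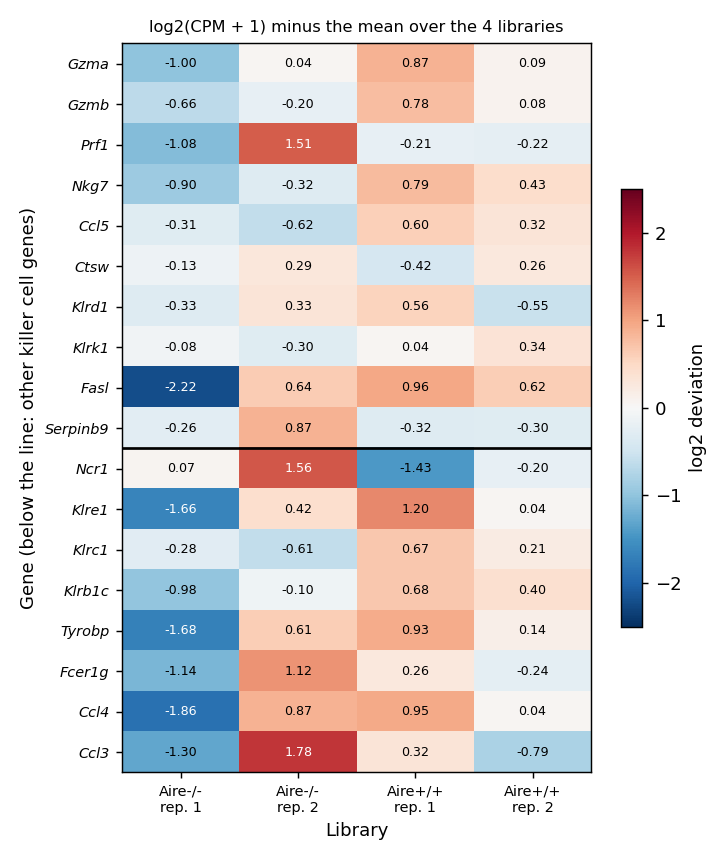
Log2(CPM + 1) of each gene minus its mean over the 4 libraries, the 10 genes above the line and 8 other killer cell genes, chosen after their values were seen, below it. Aire-/- replicate 1 is blue for Fasl (-2.22) and Prf1 (-1.08) as for Klre1 (-1.66), Tyrobp (-1.68) and Ccl4 (-1.86), while Ccl5 and Klrk1 are lower in Aire-/- replicate 2 than in replicate 1.

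Natural killer cells share these genes, so their markers are given beside them. Of 12 natural killer markers, Gzma and Prf1 are members themselves. The other 10 summed to 77.6 and 128 CPM in Aire-/- libraries and 160 and 102 CPM in Aire+/+ libraries, which overlapped. Irf8, picked with its values known, held 27 of 85 and 55 of 136 of these counts in Aire-/- libraries. In Aire+/+ libraries it held 101 of 198 and 40 of 119 (log2 fold change -0.6). Ncr1, the defining receptor NKp46, had 7 and 21 counts in Aire-/- libraries and 2 and 6 in Aire+/+ libraries, and the Ly49 receptors Klra4 and Klra8 had 0 counts in all 4. Klrb1c, the NK1.1 receptor, had 4 and 8 counts against 17 and 13 (log2 fold change -1.14, adjusted p = 0.93). Of the 5 natural killer markers tested that are not members, 4 lay below 0, with a median of -1.07. That median was -0.32 without Aire-/- replicate 1 and -0.34, with 3 of 5 below 0, without Aire+/+ replicate 1. The filter had left out Ncr1, Klra7 and Eomes, which had few counts and a higher mean CPM in Aire-/- libraries. For the full list, Gzma and Prf1 included, the median was -0.94 with the filter and 0.12 without it. For CD8 T cells, Cd8a had 35 and 25 counts against 32 and 32, and Cd8b1 had 3 and 2 against 2 and 1. Macrophage and monocyte markers, 9 genes, summed to 360 and 405 CPM in Aire-/- libraries and 865 and 428 CPM in Aire+/+ libraries. All 5 of them that were tested lay below 0, and Cd14, which binds bacterial lipopolysaccharide on monocytes, was at 0 in each Aire-/- library, against 32 and 11 counts in Aire+/+ ones. The median of this list was -1.39, and only -0.04 without Aire+/+ replicate 1, where 3 of its genes lay below 0. Fits with 1 library left out applied the filter again and tested 10629 to 10923 genes. The median of this list there can therefore rest on other genes than the 5. Dendritic cell markers, 7 genes, summed to 2100 and 1690 CPM against 4130 and 2540 CPM. Nearly all of that sum was the class II gene H2-Ab1, which B cells also express, at 2228 and 1747 counts against 5081 and 2927. The only other one tested, Xcr1, lay above 0, with 45 and 27 counts against 19 and 26. The mast cell and basophil markers, whose cells can also hold granzyme B, summed to 8.22 and 5.66 CPM against 15.4 and 12.0 CPM. The part of any of these cells, or of the B cells above, in the values of the 10 genes was not tested.

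The CD3 chains, which form the T cell receptor complex, and of which natural killer cells also use Cd247, summed to 1390 and 1500 CPM in Aire-/- libraries and 1000 and 1530 CPM in Aire+/+ libraries. Per 1000 CD3 counts, Nkg7 had 22.3 and 31.3 counts in Aire-/- libraries and 102 and 51.9 in Aire+/+ libraries, and Ccl5 83.4 and 62.1 against 218 and 117. The groups stayed apart on this scale too. Gzma, at 31.5 and 60.8 against 163 and 62.0, came close to touching. In a fit scaled to the CD3 counts the median of all genes shifted to -0.24, and Nkg7 was at -1.51 and Ccl5 at -1.20, with 0 of the 10 genes called.

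Beyond the 10 genes, none of 8 further lists of the killing machinery held a gene called by edgeR over all genes. Of their 87 tested genes, 8 (9.2%) were higher and 5 (5.75%) lower at an unadjusted p under 0.05, where 2.80% and 2.77% of all genes were, and DESeq2 and limma-voom called 0 as well. Of 20 genes of granule proteases and other cargo 10 were tested, with 3 above 0, 7 below 0 and a median log2 fold change of -0.10. Ctsh, the lysosomal protease cathepsin H, had 110 and 76 counts in Aire-/- libraries and 224 and 126 in Aire+/+ libraries (-0.75, adjusted p = 0.89). Srgn, the proteoglycan that packs granzymes, was abundant at 749 and 745 counts against 916 and 925 (-0.14), and Ctsc, which activates granzymes by trimming them, had 215 and 208 against 294 and 213 (-0.10), both named after their values were seen.

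Genes of granule movement and release split evenly, with 9 of 18 tested above 0 and 9 below, and a median of -0.04. Sytl1, a synaptotagmin-like partner of Rab27, had 126 and 154 counts in Aire-/- libraries and 69 and 70 in Aire+/+ libraries (1.17, adjusted p = 0.52). Arl8b, a GTPase that moves lytic granules, had 122 and 122 counts against 215 and 180 (-0.53, adjusted p = 0.89). Neither passed the test. Among genes whose loss impairs granule release, picked after their values were seen, Rab27a had a log2 fold change of -0.08, Unc13d one of -0.14, Stx11 0.09, Stxbp2 -0.09 and Lyst 0.06. Ap3b1, a subunit of the sorting adaptor AP-3, had 249 and 191 counts in Aire-/- libraries and 185 and 170 in Aire+/+ libraries (0.47, adjusted p = 0.91).

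Protease inhibitors mostly lay above 0. Of 14 serpins and cystatins 8 were tested, and 7 of them were above 0, with a median of 0.43. Serpina3g, a serpin of activated lymphocytes, had 68 and 54 counts in Aire-/- libraries and 27 and 29 in Aire+/+ libraries (1.27, SE 0.34, adjusted p = 0.70). Serpinb1a, an inhibitor of neutrophil serine proteases, had 276 and 327 against 238 and 249 (0.47, adjusted p = 0.89). The exception below 0 was Cst3, cystatin C, with 203 and 198 against 308 and 309 (-0.46, adjusted p = 0.89).

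Killer receptors and their partners had 12 of 32 genes tested, 4 above 0 and 8 below, with a median of -0.23. The median was 0.14 without Aire+/+ replicate 2, over the genes that passed the filter in that fit. The values ran both ways among receptors. Cd226, the activating receptor DNAM-1, had 208 and 219 counts in Aire-/- libraries and 114 and 175 in Aire+/+ libraries (0.71, adjusted p = 0.89), against the lower Klrc1, Klrb1c and Klre1 given above. Of the ligands and receptors that face the members, 5 of 6 tested were above 0, with a median of 0.36. Their median was 0.16 without Aire-/- replicate 2, again over the genes that passed the filter there. Fas was first by p, and Tnfrsf10b, the TRAIL receptor, next at 117 and 81 counts against 56 and 87 (0.62, adjusted p = 0.91).

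Death ligands and effector cytokines had 5 of 10 genes tested and a median of 0.08. The median was 0.34 to 0.54 with any 1 library left out. Those fits applied the filter again, so their medians can rest on other genes than these 5 and do not show an effect of a library. Tnf had 81 and 81 counts in Aire-/- libraries and 58 and 74 in Aire+/+ libraries (0.45, adjusted p = 0.94), and Tnfsf10, or TRAIL, had 45 and 32 against 44 and 37 (0.08). The targets of granzymes and death receptors, 14 of 15 tested, also had a median of 0.08. Among 14 tested transcription factors 7 lay above 0 and 7 below. Bhlhe40, a regulator of cytokine genes, had 338 and 501 counts against 231 and 301 (0.81, adjusted p = 0.82), and Bach2, a repressor of effector genes in T cells, 84 and 45 against 170 and 101 (-0.91, adjusted p = 0.89). Runx3 had 66 and 102 against 126 and 98 (-0.25, adjusted p = 0.98), and was named after its values were seen. Tbx21, or T-bet, had 0 and 7 counts against 7 and 5, and Eomes 8 and 7 against 1 and 8, both too low to test.

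By the smallest root mean square difference of log2(CPM + 1) deviations over the 4 libraries, the genes most like the summed level of the 10 were Tmf1 (0.00702), Triap1 (0.019), Arhgap17 (0.0323), Psmb4 (0.0328) and Neat1 (0.0383). Of 6962 genes with a mean of at least 20 CPM, 96 lay within 0.1 of that summed profile, so such likeness over 4 libraries is common.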

How the data were processed

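The count table that the authors deposited gives whole-number reads by gene symbol and library, from Smart-Seq2 cDNA, a full-length method without molecular identifiers in its original form. The tools named are TopHat2 2.0.10 and Cufflinks 2.2.1 and the build mm10, per the submitters' processing notes, which give no role for them. The sources used here do not give the counter, the annotation or the handling of strand and shared reads.

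Genotype came from the sample titles. Counts were fitted with edgeR 4.0.16 in R 4.3.3 (TMM, filterByExpr with minimum count 10 and minimum total 15, quasi-likelihood F test, Benjamini-Hochberg adjustment over all genes that passed), with calls made below an adjusted p of 0.05. All 4 libraries entered, and all 10 genes passed the filter, which left 9783 genes. A log2 fold change is Aire-/- over Aire+/+. Its SE is approximate, its size over the root of the F statistic, and its 95% interval uses the residual plus prior degrees of freedom. Poisson intervals, ratio intervals and the 3-count limit cover counting error only. With 2 libraries against 2, an exact permutation test cannot give a p under 0.333, so none was run.

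Gene names, coordinates and promoters came from RefSeq on GRCm38.p6, the assembly mm10 names, and transcript lengths and overlaps from GENCODE M21. The 10 genes, the lists and the tests were chosen with earlier results of these data known. Genes named are the 10, up to 4 per list with the smallest p, the 5 most alike in profile, and others marked in the text as picked with their values known or too low to test. Alternatives were other size factors (DESeq2, upper-quartile, CD3 chain counts), DESeq2 1.42.0, limma-voom (limma 3.58.1), other filters, Rn45s removed, a replicate block, an adjusted p of 0.1 and each library left out. Some list members are counted but not reported here by name. The fit was tested on simulated data. Python 3.11.15, pandas 2.3.3, scipy 1.17.1 and matplotlib 3.10.9 made the summaries.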

Additional observations from a re-analysis of the deposited data

How the results depend on the processing

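Of 130 values of the 10 genes under alternatives, 120 kept their direction and their side of the threshold, 4 came past it and 6 changed sign. All 10 arose when 1 library was left out, apart from Ctsw scaled to CD3 chain counts (-0.05). Those past the threshold were Gzma in 2 fits, Prf1, and Fasl without Aire-/- replicate 2, and their values are given with the genes. The changes of sign were Prf1 and Ctsw at -0.09 without Aire-/- replicate 2, Klrd1 at 0.24 without Aire-/- replicate 1, and Ctsw at -0.17 and Klrd1 at 0.64 without Aire+/+ replicate 1. With 1 library left out, the log2 fold change of Prf1 ranged from -0.91 to 1.77, that of Ctsw from -0.17 to 0.52 and that of Klrd1 from -0.55 to 0.64, and members called ranged from 0 to 1 higher and 0 to 2 lower. Genes called in all ranged from 5 to 21 higher and 6 to 42 lower in those fits, against 0 and 2. DESeq2 called 4 lower, limma-voom 1 lower, and the fit without a filter 21 higher and 26 lower. The replicate block called 2 higher and 4 lower, and 0 of the 10 genes. The replicate numbers were not shown to pair the libraries, since differences between replicates 1 and 2 correlated at -0.077 across genes between genotypes. Low counts limited Klrd1 and, in Aire-/- replicate 1, Fasl and Prf1 most. That library was not the shallower of its pair, with 1144060 total counts against 1106891 in Aire-/- replicate 2. For the gene lists, counts below 0 and medians moved in 58 of 266 comparisons with an alternative. The genes of a list that passed the filter can differ between those fits.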
